A study of Mus musculus with 7 samples.

Results

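A set of 9 complement genes was described across the immune cells of a mouse glioma: the C1q chains C1qa, C1qb and C1qc, the central component C3, the receptors C3ar1 and C5ar1, the alternative pathway genes Cfb and Cfp, and the inhibitor gene Serping1. They were chosen by name, as a list of 9 among the 55491 gene rows of the deposited matrix, and all 9 had at least 1 unique molecular identifier (UMI, the tag that marks 1 captured transcript). The cells came from 7 mice, aged 8 to 12 weeks at injection, that carried CT-2A glioma cells (a mouse glioma line) in the right hemisphere. In 4 mice (KO) the genotype was Sall1CreERT2 x Siglecefl/fl, with a tamoxifen-inducible Cre driven by Sall1, a gene that marks microglia among brain macrophages, and floxed alleles of Siglece, an inhibitory sialic acid receptor. The other 3 mice (WT) were Siglecefl/fl without the driver, so the floxed alleles were common to both genotypes. Per the labels, the driver allele lies on a B6;129 and the floxed allele on a B6.129P2 background. Both genotypes received 2.5 mg tamoxifen per injection, daily from day 7 to day 21 after tumour injection and every other day thereafter. The WT mice do not carry Cre, so effects of Cre itself and of the Siglece deletion cannot be told apart. The tumour-bearing hemisphere of each mouse gave 1 library of sorted live CD45+ and/or CD11b+ cells, frozen and thawed before the sort.

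Complement is a cascade of plasma and tissue proteins that tags surfaces for removal and calls in immune cells. In the classical pathway, C1q binds antibody or altered surfaces and starts proteolysis that ends in the cleavage of C3; the alternative pathway, in which factor B (Cfb) forms the convertase and properdin (Cfp) stabilises it, amplifies that step. The small fragments C3a and C5a act through the receptors C3ar1 and C5ar1, and C1 inhibitor (Serping1) blocks the C1 proteases. In the brain, C1q is made by microglia and other macrophages and is known for tagging synapses.

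The 28644 cells held 207882564 UMIs, with 1410 to 5856 cells and a median of 4479 to 9554 UMIs per cell in a library. Of the 28178 cell barcodes, 460 (1.63%) occurred in at least 2 libraries. The targeted transcript checked the labels: Siglece had 2, 1, 0 and 0 UMIs in the microglia of KO replicates 1 to 4 and 20, 19 and 7 in those of WT replicates 1 to 3, or 6.60 against 34.2 CPM (UMIs per 1000000 UMIs) over the pooled microglia of each genotype. In monocyte-derived cells, where the driver is not known to act, Siglece stood at 43.8 pooled CPM in KO and 43.4 in WT. The 23 annotation values given by the authors were also joined into 9 classes, and of the 9 microglia markers 8 had their highest level in the class named microglia. The class called monocyte-derived joins monocytes (P1-P2) with P3, P5 and proliferating macrophages, and the origin of its macrophages was not tested. Of the 9 monocyte markers only 3 were highest in the monocyte-derived class, where their summed level averaged 3426 CPM in KO and 4360 in WT, below plasmacytoid dendritic cells (5629 and 7071). No annotation value was named for border-associated macrophages, and 5 of the 8 markers of that type were highest in monocyte-derived cells. Xist and Y-linked transcripts marked KO replicates 1 and 2 as female, likewise WT replicate 3, and the rest as male. KO microglia were few, with 30, 21, 13 and 49 cells against 113, 92 and 96 in WT.

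The C1q genes lie within 18675 bases of chromosome 4, on the minus strand, in the order C1qb, C1qc and C1qa by coordinate (C1qb 136880129 to 136886187, C1qc 136889804 to 136893065, C1qa 136895917 to 136898803, GENCODE M21, build GRCm38, the build named mm10 in the submitters' processing notes). The other members, also on the minus strand, are C3 (chromosome 17, 57203970 to 57228136), C3ar1 (6, 122847138 to 122856161), C5ar1 (7, 16246743 to 16259540), Cfb (17, 34856374 to 34862518), Cfp (X, 20925454 to 20931555) and Serping1 (2, 84765387 to 84775444). The levels of the 3 C1q genes and of C3ar1 correlated over the annotation values (r = 0.98 or more between each pair), and C5ar1 reached r = 0.98 with C3ar1 and C1qb. Within the cells high in C1q the genes parted. In WT, C1qa was at 8530 CPM in the main microglia annotation and 4907 in P5 macrophages, and C3ar1 at 324 and 451. With that limit, the promoter windows that the RefSeq table (GRCm38.p6) holds for C1qb, C1qc and C3ar1 are shown beside that of C3. Each runs from 250 bases before to 50 bases after the start that RefSeq gives, 5′ to 3′. That start is the GENCODE one for C3, but lies 151 bases inside the GENCODE gene for C1qc, 4 inside for C3ar1 and 13 before it for C1qb. Capitals mark matches, on either strand, to 4 motifs of factors active in myeloid cells: GAGGAA (the PU.1 core), TGCTGA (a MAF half-site), TTGCNNAA (C/EBP) and the interferon-stimulated response element, by its name.
C1qb promoter, chr4:136886151-136886450, minus strand: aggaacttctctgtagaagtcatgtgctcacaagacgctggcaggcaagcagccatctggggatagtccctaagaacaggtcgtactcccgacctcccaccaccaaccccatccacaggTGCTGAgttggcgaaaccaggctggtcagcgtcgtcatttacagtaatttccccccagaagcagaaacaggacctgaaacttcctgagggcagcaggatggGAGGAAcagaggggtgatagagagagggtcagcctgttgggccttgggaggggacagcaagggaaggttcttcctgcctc
C1qc promoter, chr4:136892865-136893164, minus strand: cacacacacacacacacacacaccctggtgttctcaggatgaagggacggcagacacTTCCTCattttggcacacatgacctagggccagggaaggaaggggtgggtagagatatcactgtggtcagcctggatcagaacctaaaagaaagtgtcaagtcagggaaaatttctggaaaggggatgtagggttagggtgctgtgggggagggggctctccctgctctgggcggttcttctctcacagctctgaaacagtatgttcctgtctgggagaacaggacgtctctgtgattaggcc
C3ar1 promoter, chr6:122856108-122856407, minus strand: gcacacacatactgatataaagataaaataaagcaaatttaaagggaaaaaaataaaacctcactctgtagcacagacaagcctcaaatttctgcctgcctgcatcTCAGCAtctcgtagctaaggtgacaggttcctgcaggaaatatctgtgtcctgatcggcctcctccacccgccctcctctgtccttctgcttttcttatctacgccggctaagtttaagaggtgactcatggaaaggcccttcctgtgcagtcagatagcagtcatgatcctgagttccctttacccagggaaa
C3 promoter, chr17:57228087-57228386, minus strand: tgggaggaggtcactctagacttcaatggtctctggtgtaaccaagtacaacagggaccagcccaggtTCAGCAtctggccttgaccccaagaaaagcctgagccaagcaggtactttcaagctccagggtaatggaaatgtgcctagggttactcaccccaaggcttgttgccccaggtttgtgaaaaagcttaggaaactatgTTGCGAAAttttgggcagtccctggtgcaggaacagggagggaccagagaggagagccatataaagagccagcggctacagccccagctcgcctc
The C1qb window held 1 match to the PU.1 core and 1 to the MAF half-site, and the C1qc window 1 to the PU.1 core. C3ar1 held 1 MAF half-site, and C3 held 1 MAF half-site and 1 C/EBP match. Among the 6 members with a promoter in the table, 3 held the PU.1 core (C1qb, C1qc and Cfp), against 28.3% of 27025 promoter windows of the same length, and 4 the MAF half-site (C1qb, C3, C3ar1 and C5ar1), against 19.1%. The C/EBP letters were found in 1 of the 6, against 10.8% of all windows, and the interferon response element in 0 of the 6, against 3.49%. A match is a description of the letters and not a binding site.

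C1q was highest in microglia and rose from tumour monocytes to macrophages in every mouse. In the main microglia annotation, C1qa stood at 8624 ± 650 CPM (mean ± SD, n = 6 mice with at least 5 such cells), C1qb at 10715 ± 1517 and C1qc at 6988 ± 749. By mouse, C1qa was at 7871, 9032 and 9251 CPM in KO replicates 1, 2 and 4 and at 7777, 9138 and 8674 in WT. The 2 genotypes overlapped fully there, and every mouse lay above every value of the next annotation. Macrophages (P5) came next, with C1qa at 4710 ± 369, C1qb at 6360 ± 472 and C1qc at 4666 ± 294 CPM (n = 7), followed by proliferating macrophages (C1qa 3943 ± 537), macrophages (P3) (2121 ± 489), low-quality or activated microglia (1935 ± 449) and monocytes (P1-P2) (1081 ± 375). P1-P2, P3 and P5 are the authors' names, whose definition was not given in the sources used here. P5 and proliferating macrophages overlapped between mice, but in 7 of 7 mice P5 was the higher. Between macrophages (P3) and low-quality microglia the chains differed in order: C1qa overlapped and was higher in P3 in 3 of 7 mice, C1qc was higher in P3 in 6 of 7, and C1qb, at 3520 ± 711 against 1966 ± 434 CPM, did not overlap.

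**Figure D1:**
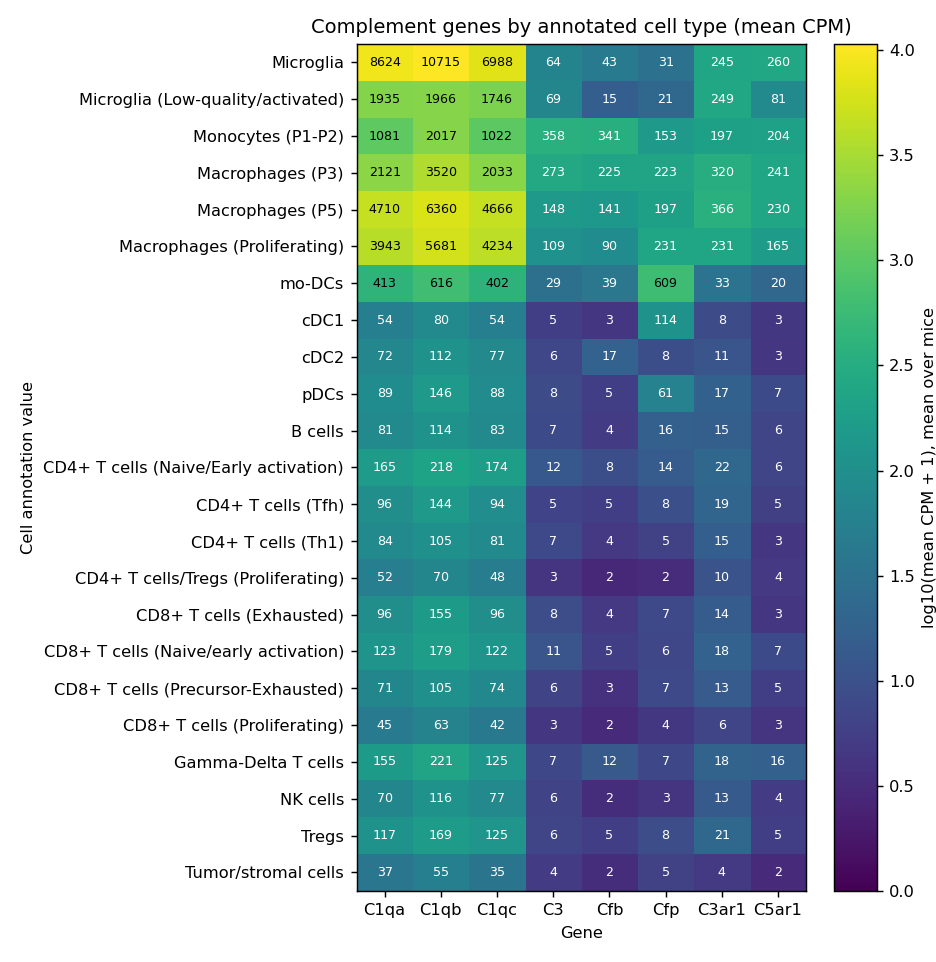
Mean CPM (number in each field) of 8 complement genes in the 23 annotation values, coloured by log10(mean CPM + 1). The C1q genes peak in microglia and P5 macrophages, C3 and Cfb in monocytes (P1-P2), Cfp in mo-DCs, and the receptors spread over microglia, monocytes and macrophages.

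Along the monocyte and macrophage annotations the members split into opposite directions. C1qa rose from P1-P2 to P3 and from P3 to P5 in 7 of 7 mice, with P5 at 5.05 times P1-P2 on average (range 3.13 to 10.6). C1qb did so in 7 of 7 mice (3.45 times, range 2.22 to 5.68), and so did C1qc (5.24 times, range 3.02 to 10.8) and C3ar1 (1.87 times, range 1.54 to 2.61). C3 ran the other way in 7 of 7 mice, with P5 at 0.411 times P1-P2 (range 0.132 to 0.811), and Cfb in 6 of 7 mice (0.447 times, range 0.157 to 0.608). C5ar1 and Cfp kept no common order, with P1-P2 below P3 and P3 below P5 in 3 of 7 mice for each. These orders are a description without a test, since the annotation rests on the same cells.

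**Figure D2:**
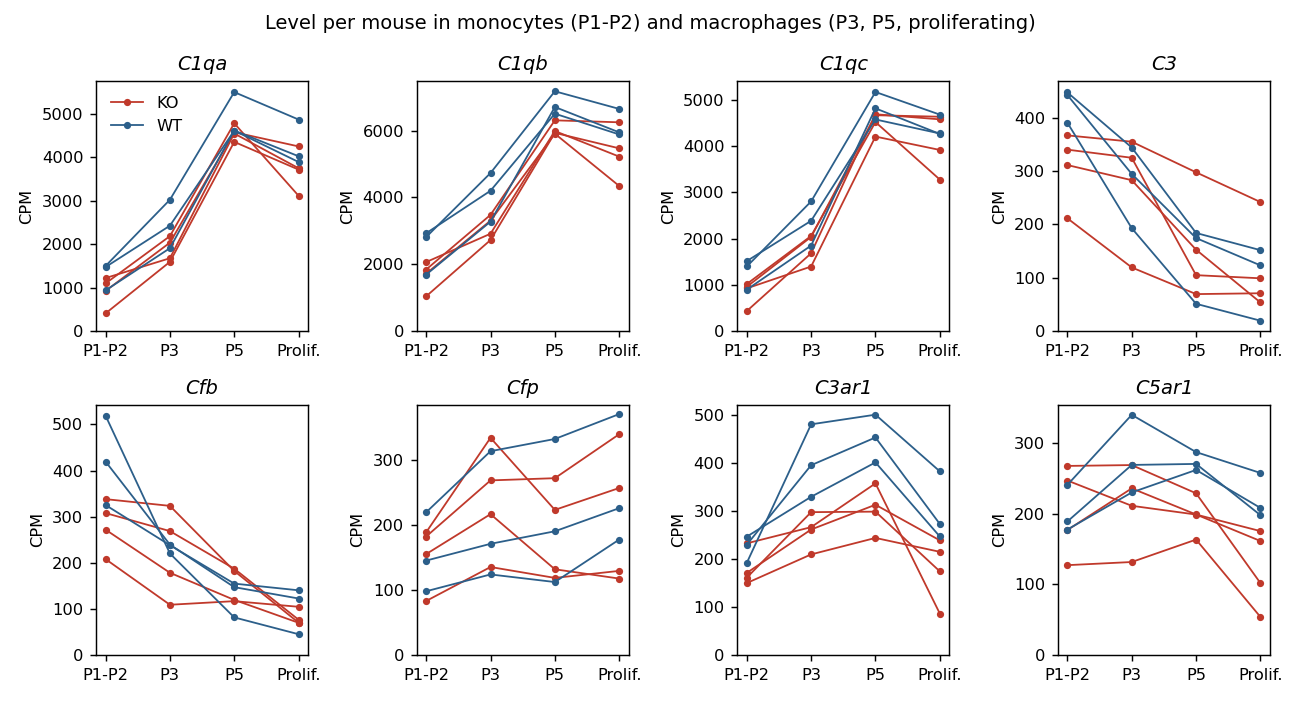
CPM of 8 complement genes in monocytes (P1-P2) and in P3, P5 and proliferating macrophages, with 1 line per mouse (KO red, WT blue). C1q and C3ar1 rise from P1-P2 to P5 in all 7 mice, C3 falls in all 7, and Cfb is lower in P5 than in P1-P2 in all 7.

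The mix of C1q chains also differed among cell types. C1qb made up 49.3% ± 3.09 of the C1q UMIs in monocytes (P1-P2), 46.0% ± 1.55 in macrophages (P3), 40.4% ± 0.97 in macrophages (P5) (n = 7) and 40.6% ± 2.27 in microglia (n = 6). C1qa made up 26.0% ± 2.49 in monocytes (P1-P2) and 32.8% ± 1.99 in microglia. Low-quality microglia had 34.8% ± 3.83 and mo-DCs 43.5% ± 2.16, so the C1qb share did not follow the level of C1q over all annotations. A UMI counts 1 end of a transcript and is not scaled by length, so these shares compare cell types and not amounts of the chains.

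Lymphocytes carried a low level of C1q, which is used here as the background for the other cells. T cells, which should lack C1q, stood at 92.6 ± 34.9 CPM of C1qa, or 2.75% ± 1.06 of the level in monocyte-derived cells of the same mouse (n = 7), B cells at 2.76% ± 1.97 (n = 6) and NK cells at 2.10% ± 0.69. The shares of the chains in T cells (C1qa 30.0%, C1qb 41.1% and C1qc 28.9% of C1q UMIs) lay within 1 percentage point of those in monocyte-derived cells (29.2%, 41.9% and 28.9%), without a test. After every cell was thinned to 1500 UMIs, 39.4% ± 13.1 of T cells had a UMI of at least 1 chain but 1.14% ± 0.85 had all 3 chains; without thinning these shares were 74.8% and 8.50%, at a median of 4748 UMIs per T cell. Thinning left out 244 of 13692 T cells, 53 of 7477 monocyte-derived cells and, the largest part, 41 of 414 microglia. All 3 chains were found together in 81.0% ± 7.87 of thinned microglia and 73.5% ± 7.02 of thinned monocyte-derived cells (85.2% and 83.0% unthinned, at medians of 3058 and 6245 UMIs). 

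Monocyte-derived dendritic cells (mo-DCs) stood between these levels, with most of their C1q UMIs in a few cells. C1qa in mo-DCs was at 661, 259, 167 and 804 CPM in KO replicates 1 to 4 and at 272, 262 and 466 in WT. KO replicates 1 and 4 lay highest and KO replicate 3 lowest, so the genotypes overlapped. The share of thinned mo-DCs with at least 1 chain was 39.9% ± 9.60, close to that of T cells (39.4% ± 13.1), but 9.39% ± 7.07 had all 3 chains against 1.14% of T cells. Within each mouse the median mo-DC held 1 to 3 C1q UMIs, while the 10% of mo-DCs with the most C1q held 58.6% to 86.6% of the C1q UMIs; the highest single mo-DC held 442. In P5 macrophages the top 10% held 23.0% to 26.8%, and in monocytes (P1-P2), with medians of 2 to 17 UMIs, 39.4% to 72.1%. The 72.1% came from KO replicate 1, with 34 such monocytes. The next highest monocyte library, KO replicate 4, stood at 51.6%, below every mo-DC library. The handling of doublets was not given in the sources used here, and their part in the few mo-DCs with the most C1q was not tested.

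**Figure D3:**
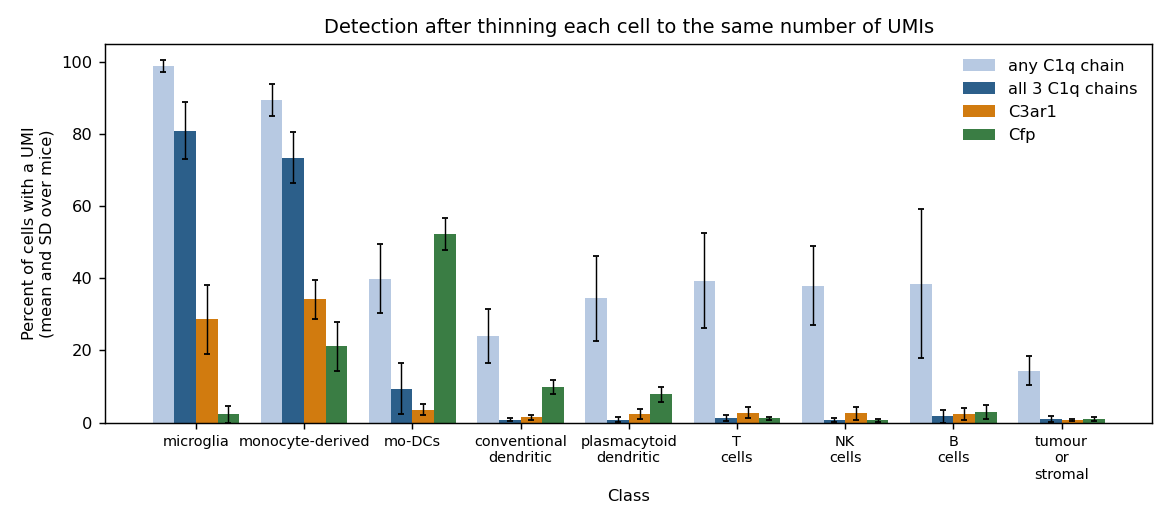
Percent of cells with a UMI after each cell was thinned to 1500 UMIs, as mean and SD over mice, for any C1q chain, all 3 C1q chains, C3ar1 and Cfp in the 9 classes. Any chain is found in about as many mo-DCs (39.9%) as T cells (39.4%), all 3 chains in most microglia and monocyte-derived cells, and Cfp most often in mo-DCs (52.3%), then in monocyte-derived cells (21.1%).

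C3, whose cleavage is the shared step of the complement pathways, was highest in monocytes (P1-P2) at 358 ± 81.8 CPM (n = 7), then P3 macrophages at 273 ± 86.5 and P5 macrophages at 148 ± 83.4. By mouse, C3 in monocytes (P1-P2) was at 211, 340, 311 and 367 CPM in KO and 390, 447 and 442 in WT. Main microglia held 64.2 ± 25.9 CPM (n = 6) and mo-DCs 29.4 ± 19.2, against 6.39 ± 2.72 in T cells. Cfb, the protease of the alternative pathway convertase, followed nearly the same order, with 341 ± 101 CPM in monocytes (P1-P2), 225 ± 67.9 in P3, 141 ± 38.0 in P5 and 43.1 ± 26.2 in main microglia. Over the 23 annotation values, log2(CPM + 1) of C3 and Cfb correlated at r = 0.97; the points share libraries and depth, and no p is given. The Cfb values need a caveat: 18.7% of the Cfb UMIs were in values that are not whole, and in 2248 of 2248 cells with such a value Cfb and the overlapping gene Gm20547 (chromosome 17, 34856412 to 34882042; Cfb 34856374 to 34862518, both on the minus strand) summed to a whole number within 0.01. Reads of the overlap cannot be told apart between these genes.

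Cfp had its highest level in mo-DCs, although of its 24714 UMIs 9814 came from mo-DCs and 10721 from monocyte-derived cells. Properdin transcripts were highest in mo-DCs at 609 ± 99.6 CPM (n = 7), with 573, 637, 669 and 524 CPM in KO and 607, 778 and 475 in WT, and every mo-DC value exceeded every value in proliferating macrophages (231 ± 98.3), the next annotation. Macrophages (P3) held 223 ± 84.5, P5 197 ± 83.9, monocytes (P1-P2) 153 ± 49.2, cDC1 (conventional dendritic cells type 1) 114 ± 22.5 and plasmacytoid dendritic cells 61.2 ± 14.1 CPM. cDC2, the other conventional type, stood at 8.46 ± 3.69 CPM and main microglia at 31.5 ± 25.2. A Cfp UMI was found in 52.3% ± 4.56 of thinned mo-DCs, 21.1% ± 6.84 of monocyte-derived cells, 9.80% ± 1.93 of conventional dendritic cells, 7.79% ± 2.12 of plasmacytoid dendritic cells and 1.13% ± 0.52 of T cells (88.0% of mo-DCs and 3.14% of T cells unthinned). Its correlation with C1qa over the annotation values was r = 0.68, against r = 0.98 for C3ar1 and 0.97 for C5ar1.

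The receptors were found in microglia, monocytes and macrophages alike. C3ar1, the C3a receptor, stood at 366 ± 90.6 CPM in P5 macrophages, 320 ± 91.7 in P3, 249 ± 101 in low-quality microglia, 245 ± 120 in main microglia (n = 6), 231 ± 90.7 in proliferating macrophages and 197 ± 38.7 in monocytes (P1-P2), and these neighbours overlapped between mice. It dropped to 33.5 ± 14.9 in mo-DCs. C5ar1, the C5a receptor, stood at 260 ± 68.1 CPM in main microglia, 241 ± 63.8 in P3, 230 ± 45.4 in P5, 204 ± 49.7 in monocytes (P1-P2) and 165 ± 68.4 in proliferating macrophages, again with overlap between neighbours, and at 81.5 ± 32.4 in low-quality microglia. After thinning, 34.2% ± 5.38 of monocyte-derived cells and 28.6% ± 9.60 of microglia had a C3ar1 UMI against 2.72% ± 1.60 of T cells; for C5ar1 the shares were 25.4% ± 3.86, 16.4% ± 6.02 and 0.90% ± 0.59.

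Serping1 was nearly absent from the sort, with 29 UMIs in 14 cells. Of these, 11 came from tumour or stromal cells, all in KO replicate 2, 6 from microglia, all in WT mice, 11 from monocyte-derived cells (1 in KO and 10 in WT) and 1 from conventional dendritic cells. In T cells it had 0 of 13692 cells, which allows a share of cells with a UMI of up to 0.0219%, a limit that covers counting error only and not the spread between mice. Serping1 passed the low-count filter in no set and was not tested.

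The genes outside the list whose profile over the 23 annotation values was most like each member were ranked by Pearson r of log2(CPM + 1) among 10996 genes; no p is given, since the points share libraries and depth. For C1qa, C1qb and C1qc these were the same trio, Trem2, Ccl12 and Adgre1 (r from 0.98 to 0.99). For C3ar1 they were Trem2, Adgre1 and Apoe (r = 0.98 each), and for C5ar1 Trem2, Apoe and Fcgr3 (r = 0.98 each). C3 was most like Gm44805, Apoc2 and Lyz2 (0.98, 0.98 and 0.98). Cfb was most like Gm20547, with which it shares reads, then Il1rn and Cd14 (0.98, 0.98 and 0.97). Cfp was most like Alox5ap, H2-DMb1 and Wfdc17 (0.94, 0.94 and 0.93). These ranks depend on the measure: by Spearman's rho 1 of the 3 genes was shared for C1qa, C1qb, C1qc, C3ar1 and Cfp, 0 of 3 for C5ar1 and 2 of 3 for C3 and Cfb. Values that were not whole held 54.2% of the UMIs of Gm44805, 54.1% of Apoc2, 32.9% of Fcgr3 and 32.5% of H2-DMb1.

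Of the wider pathway, 16 genes of the classical and lectin branches, 10 of the alternative and terminal branches, 9 other receptors and 13 regulators were examined, and 38 of the 48 had a UMI. C4b, whose protein is cleaved by C1, was highest in microglia at 192 ± 54.5 CPM (n = 6 mice with at least 20 cells) against 23.7 in monocyte-derived cells. Itgam, the alpha chain of complement receptor CR3, stood at 596 ± 208 CPM in microglia and 361 in monocyte-derived cells. Among the regulators, Cd55 was highest in B cells at 136 ± 138 CPM, with Cd109 (68.0 ± 11.4, n = 5) and Clu (34.4 ± 16.7) highest in tumour or stromal cells. The C1 proteases were low, with C1ra at 15.2 ± 7.06 CPM and C1s1 at 0.44 ± 0.51 CPM in monocyte-derived cells, and the 10 genes without a UMI included Cfd, C7, C9, Mbl1 and Mbl2. No gene of these 4 groups passed the adjusted threshold between genotypes in any set tested with edgeR. At an unadjusted p under 0.05 there were 1 of 7 tested in microglia (11.8% of all genes), 0 of 12 in monocyte-derived cells (5.64%), 4 of 24 in all sorted cells (20.5%), 2 of 6 in tumour or stromal cells (8.62%, with 2 KO mice in the fit), 1 of 4 in low-quality microglia (7.11%, also with 2 KO mice), 1 of 6 in NK cells (4.09%), 1 of 6 in cDC2 (9.67%) and 1 of 6 in proliferating macrophages (3.68%). The gene in microglia was Itgam, at a log2 fold change of -0.87 with an SE of 0.25 (edgeR adjusted p = 0.118).

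The genotype comparison asked whether loss of Siglece in microglia changed complement transcripts in any cell type. Sums of UMIs for each mouse and class were compared with edgeR's quasi-likelihood test with Benjamini-Hochberg adjustment over all genes of the class. The p-values measure the spread between mice. No member passed an adjusted p of 0.05 in any class or annotation value tested, and few genes of any kind did. Main microglia had too few KO cells for a fit, and T cells were fitted as a class and not by annotation value. In microglia 0 of 7 tested members were called (2 of 4820 genes, 0.0415%), in monocyte-derived cells 0 of 8 (0%), in mo-DCs 0 of 8 (0%), in conventional dendritic cells 0 of 8 (0%) and in plasmacytoid dendritic cells 0 of 4 (0.045% of genes). In T cells it was 0 of 8 (0%), in NK cells 0 of 4 (0.0141%), in B cells 0 of 3 (0%) and in tumour or stromal cells 0 of 3 (0.0288%). By annotation value it was 0 of 5 in low-quality microglia (0.213% of genes, with 2 KO and 3 WT mice in the fit), 0 of 8 in monocytes (P1-P2) (0%), 0 of 8 in macrophages (P3) (0%), 0 of 8 in macrophages (P5) (0.0188%), 0 of 8 in proliferating macrophages (0%), 0 of 8 in cDC1 (0%) and 0 of 6 in cDC2 (0%). Outside microglia and the monocyte-derived annotations no member reached an unadjusted p under 0.05 within a cell type tested. DESeq2 also called 0 members within each cell type tested.

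C3ar1 had a lower mean in KO in every annotation value, the 6 microglia, monocyte and macrophage ones included, without passing the adjusted threshold in those tested. The lower mean was thus not particular to these 6: T cells, used above as background, stood at 11.1 CPM in KO and 20.3 in WT, and B cells at 9.40 and 23.3. Marker lists of other cells also differed with genotype in monocyte-derived cells and microglia. The 5 T cell markers summed to 37.9 to 58.3 CPM in KO and 10.6 to 26.8 in WT monocyte-derived cells, and to 58.9 to 117 and 5.42 to 31.4 in microglia. The 5 plasmacytoid markers summed to 383 to 765 CPM in KO and 851 to 1080 in WT monocyte-derived cells. None of these T cell or plasmacytoid markers was at 0 over the mice of a genotype, and their part in the results was not tested. In macrophages (P5) C3ar1 was at 243, 313, 357 and 298 CPM in KO replicates 1 to 4 and at 500, 453 and 401 in WT. In macrophages (P3) it was at 209, 261, 266 and 297 in KO and 480, 395 and 329 in WT. Every KO mouse lay below every WT mouse in both. P5 gave a log2 fold change of -0.55, SE 0.15 (edgeR adjusted p = 0.622, unadjusted p = 0.00379) and P3 gave -0.62, SE 0.18 (adjusted p = 0.867, unadjusted p = 0.00545), both above the adjusted threshold. Over all monocyte-derived cells C3ar1 was at 226, 275, 298 and 263 CPM in KO and 405, 404 and 334 in WT, with a log2 fold change of -0.51, an SE of 0.14 and an edgeR adjusted p of 0.827. Proliferating macrophages, with KO replicate 3 (10 cells) left out of the fit, gave -0.50 with an SE of 0.22 and monocytes (P1-P2) -0.36 with an SE of 0.19 (edgeR adjusted p = 0.997 and 0.761), the latter with overlap between mice (150, 171, 232 and 161 against 192, 229 and 246 CPM). In main microglia, too few in KO for the test, C3ar1 was at 201, 112 and 183 CPM in KO replicates 1, 2 and 4 and at 456, 218 and 299 in WT. The microglia class, with KO replicate 3 (13 cells) left out of the fit, gave -0.77 with an SE of 0.28 (edgeR adjusted p = 0.242). KO replicate 3 itself stood at 379 CPM, above 2 of the 3 WT mice (417, 239 and 273), so the non-overlap in microglia holds only without it. Main microglia made up 33.3%, 33.3%, 0% and 30.6% of the class in KO and 38.9%, 52.2% and 40.6% in WT, and the summed level of the 9 microglia markers ran from 5016 to 7145 CPM in KO and from 6799 to 9138 in WT; their part in the result was not tested.

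C5ar1 was also lower in KO in parts of the lineage, less regularly. The lower mean was not particular to these cells: T cells stood at 3.43 CPM in KO and 7.41 in WT, B cells at 0.66 and 13.3, and NK cells at 3.09 and 5.81. Among the classes, the KO mean was the higher in mo-DCs (21.2 against 19.3) and plasmacytoid dendritic cells (7.36 against 6.91). In macrophages (P5) it was at 199, 199, 163 and 229 CPM in KO and 287, 271 and 262 in WT, without overlap (log2 fold change -0.44, SE 0.16, edgeR adjusted p = 0.698). P3 macrophages overlapped (211, 236, 132 and 269 against 340, 269 and 230 CPM; -0.38, SE 0.24), and monocytes (P1-P2) had means of 205 and 203 CPM. Proliferating macrophages gave -0.55 with an SE of 0.22 and the microglia class -0.53 with an SE of 0.26 (edgeR adjusted p = 0.997 and 0.414). In the same macrophages (P5) 8 markers of border-associated macrophages summed to 845, 1087, 982 and 1495 CPM in KO and to 1632, 1535 and 1381 in WT, with overlap through KO replicate 4. The 9 monocyte markers summed to 940, 1168, 838 and 1048 against 1617, 1071 and 2217 CPM and the 9 microglia markers to 1345, 1552, 1422 and 1364 against 2510, 1602 and 1386, both with overlap. Their part in the C3ar1 and C5ar1 differences was not tested.

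**Figure D4:**
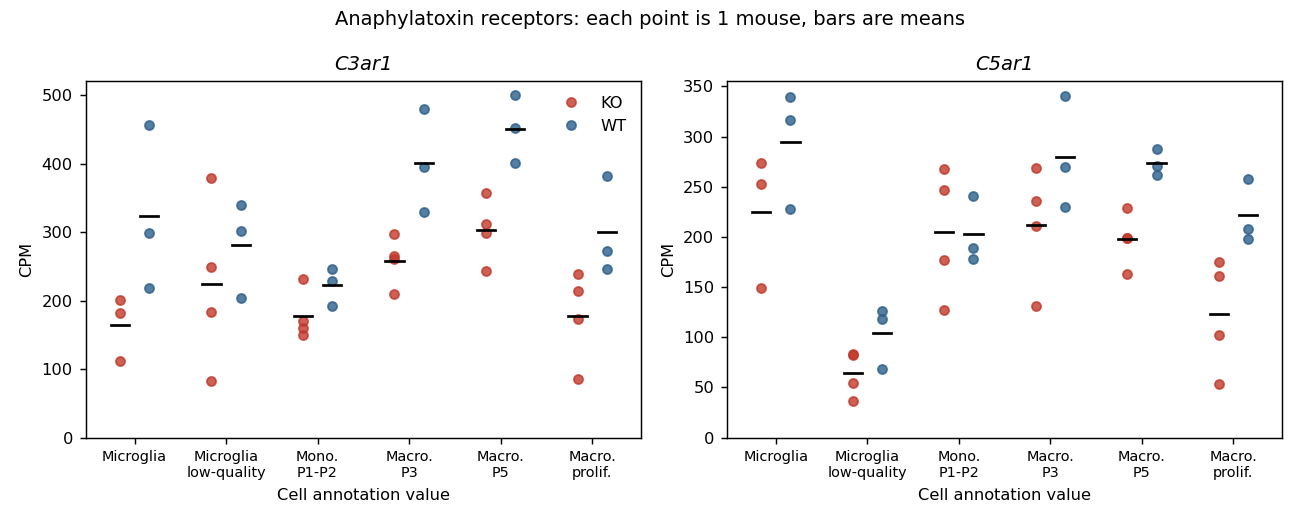
CPM of C3ar1 and C5ar1 in 6 microglia, monocyte and macrophage annotation values; each point is 1 mouse with at least 5 such cells (KO red, WT blue) and bars are group means. C3ar1 of every KO mouse shown lies below that of every WT mouse in main microglia and in P3, P5 and proliferating macrophages. C5ar1 does so in P5 and proliferating macrophages. Main microglia were 10, 7 and 15 cells in KO replicates 1, 2 and 4, and replicate 3 had 0.

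These separations have to be read against all genes. In macrophages (P5), 3 of 8 members (C1qb, C3ar1 and C5ar1) lay below WT without overlap, against 4.51% of 10632 genes, and 2 of 8 had an unadjusted p under 0.05, against 6.78%. Macrophages (P3) had 1 of 8 (3.36% of genes) and 1 of 8 (5.41%), proliferating macrophages 2 of 8 (5.4%) and 2 of 8 (3.68%), and monocytes (P1-P2) 1 of 8 (C3, against 3.12%) and 4 of 8 (C1qb, C1qc, C3 and Cfb, against 6.71%). For all monocyte-derived cells the counts were 1 of 8 (3.47%) and 1 of 8 (5.64%), and for microglia 4 of 7 (9.75%) and 2 of 7 (11.8%). Low-quality microglia, with 2 KO mice, had 2 of 5 (C1qa and C1qc, against 10.5%) and 0 of 5 (7.11%). With all 4 KO mice, each of at least 5 such cells, both genes overlapped. The members' median log2 fold change was -0.15 in monocyte-derived cells, with 8 of 8 below 0, and -0.38 in microglia, with 7 of 7 below 0; over all genes tested the medians were 0.00 in both, and 50.1% and 49.9% of genes were below 0. The count of 8 did not hold with 1 mouse left out: in monocyte-derived cells C1qa then reached up to 0.0054 (without WT replicate 2), C3 0.20 (KO replicate 1; also above 0 without WT replicate 2 or 3), Cfb 0.045 (KO replicate 1) and Cfp 0.40 (WT replicate 2; also above 0 without KO replicate 2 or 3). In microglia C3 turned to 0.060 without KO replicate 4 and to 0.47 with libraries of 5 or more cells, and C1qb to 0.028 in cells at or below the median mitochondrial content. Lymphocytes, used above as background, gave the same sign: 8 of 8 below 0 in T cells (median -0.49), 4 of 4 in NK cells (-0.65) and 3 of 3 in B cells (-0.89). In mo-DCs 3 of 8 were below 0 (median 0.16). The members are few and share cells and libraries, and they were chosen with earlier results of these data known, so these counts describe the list and test nothing.

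The C1q genes passed the adjusted threshold in no cell type tested. Among the monocyte-derived annotations their fold changes were smallest in macrophages (P5) and proliferating macrophages. In macrophages (P5) the log2 fold changes were -0.08 for C1qa, -0.15 for C1qb and -0.08 for C1qc, with SEs of 0.12, 0.11 and 0.12, and in macrophages (P3) -0.39, -0.39 and -0.38 with SEs of 0.21, 0.19 and 0.22. In monocytes (P1-P2) they were -0.55, -0.62 and -0.64 with SEs of 0.34, 0.24 and 0.29 (edgeR adjusted p = 0.788, 0.692 and 0.740); C1qb there was at 1044, 1845, 2068 and 1722 CPM in KO and 1693, 2817 and 2930 in WT, with overlap through WT replicate 1. KO replicate 1 was the lowest there, and without it the 3 fold changes were -0.31, -0.45 and -0.43 (edgeR adjusted p = 0.821, 0.757 and 0.767). Without the filter on low counts C1qb and C1qc passed there (adjusted p = 0.0314 and 0.0316). In proliferating macrophages the C1q fold changes ran from -0.19 to -0.07. The microglia class had C1qa at 5525, 5461 and 5671 CPM in KO replicates 1, 2 and 4, below 5849, 7345 and 6993 in WT (-0.30, SE 0.20, edgeR adjusted p = 0.578), while the main microglia within it overlapped, at means of 8718 and 8530. C1qb and C1qc in the microglia class gave -0.16 and -0.38 (SE 0.20 each). KO held the smaller share of main microglia, where C1q was highest, as given above, and the part of this makeup in the difference was not tested.

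C3 and Cfb stood lower in KO monocytes (P1-P2), at log2 fold changes of -0.50 (SE 0.20) and -0.61 (SE 0.20), with edgeR adjusted p = 0.683 and 0.608. By mouse, Cfb there was at 208, 272, 338 and 308 CPM in KO and 519, 325 and 420 in WT, with overlap. Over all monocyte-derived cells C3 gave -0.07 (SE 0.40), Cfb -0.13 (SE 0.25) and Cfp -0.05 (SE 0.39), each smaller than its error, and in microglia C3 gave -0.16 (SE 0.42) and Cfb -0.46 (SE 0.50). The Cfb value in microglia depended on single mice, at -0.030 without KO replicate 1, -0.24 without KO replicate 2 and -1.77 without KO replicate 4. Cfp in mo-DCs gave -0.09 with an SE of 0.16, and C1qa, C1qb and C1qc there 0.49, 0.29 and 0.55 with SEs of 0.62, 0.61 and 0.66 (all edgeR adjusted p of 0.883 or more). The 9 monocyte markers in mo-DCs summed to 944 to 1341 CPM in KO and 1527 to 3106 in WT, without overlap, and their part was not tested.

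The genotype difference in microglia was set against that in monocyte-derived cells in 1 edgeR fit with a term per mouse (3 KO and 3 WT mice with at least 20 cells of each). No member of 8 was called, against 0.523% of 11858 genes. The differences ran from -0.51 for C1qc (SE 0.27, edgeR adjusted p = 0.486) to -0.18 for C1qb (SE 0.27, edgeR adjusted p = 0.896). C3ar1 gave -0.33 (SE 0.29), and -0.62 to -0.058 over the alternatives.

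In the whole sort, 7 of the 8 tested members had lower levels in every KO mouse than in any WT mouse, and none passed edgeR's adjusted threshold. C3ar1 over all sorted cells was at 75.1, 66.3, 40.7 and 49.7 CPM in KO and 232, 126 and 138 in WT, a log2 fold change of -1.51 with an SE of 0.27. C1qa was at 1165, 704, 401 and 600 CPM against 1885, 1385 and 1370 (-1.10, SE 0.33), and Cfb at 40.4, 35, 32.4 and 40.3 against 118, 60.7 and 89.6 (-1.26, SE 0.21). C1qb, C1qc, C3 and C5ar1 gave -1.15, -1.06, -1.11 and -1.38 with SEs of 0.34, 0.39, 0.24 and 0.40, and all 7 of these genes lay below WT without overlap, against 8.88% of 16997 genes. Cfp gave -0.45 (SE 0.31) and overlapped. By edgeR 0 of 8 members were called (0% of genes; adjusted p from 0.159 to 0.444) and 7 of 8 had an unadjusted p under 0.05, against 20.5% of genes; DESeq2 called 6 of 8, all but C1qc and Cfp, against 7.83%. Monocyte-derived cells were 23.5%, 20.4%, 9.25% and 15% of the cells in KO and 53.1%, 32.3% and 44.4% in WT, and T cells 43.5%, 50.2%, 79.9% and 60.6% against 10.6%, 33.8% and 31.9%. In these pooled sums fewer cells of a type and less RNA per cell cannot be told apart, while the fits within a class compare that class alone. Within monocyte-derived cells the fold changes of the 8 members lay between -0.51 and -0.05; the part of the cell shares in the whole-sort difference was not tested.

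**Figure D5:**
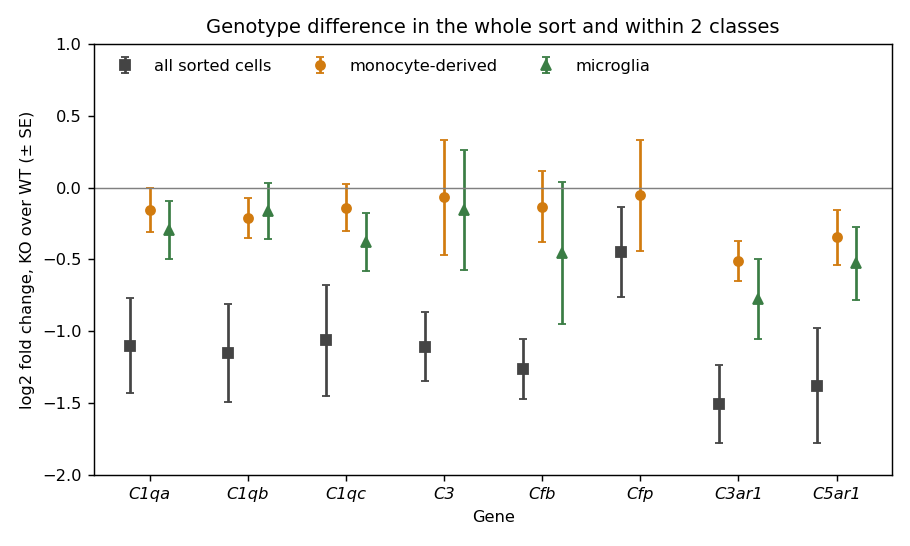
Log2 fold change (KO over WT, with SE as bars) of 8 complement genes in all sorted cells (squares), monocyte-derived cells (circles) and microglia (triangles; Cfp was not tested there). In the whole sort 7 genes lie between -1.51 and -1.06, and within monocyte-derived cells all 8 lie between -0.51 and -0.05.

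Most C1q transcripts of the sort came from the class called monocyte-derived in both genotypes. Macrophages (P5) gave 419310 of the 644288 C1q UMIs of that class, and the origin of these macrophages was not tested. The share of the class in the C1q UMIs of a mouse was 86.6%, 85.1%, 88.6% and 77.1% in KO and 91.0%, 89.5% and 89.7% in WT (84.3% ± 5.06 against 90.1% ± 0.80). Every KO mouse lay below every WT mouse, yet a two-sided exact permutation test gave p = 0.0571 (adjusted over 9 classes, 0.171), where 4 mice against 3 allow no p below 0.0286. That limit is before adjustment, and a single class at it could not reach an adjusted p under 0.05. The direction depended on how the classes were weighted. With the same number of cells in every class the difference turned from -5.73 to 5.58 percentage points (exact permutation p = 0.314, adjusted 0.943). Such weighting counts small classes in full, such as the 13 microglia of KO replicate 3, and the cause of the turn was not tested. Microglia gave 4.75%, 1.23%, 0.590% and 3.89% in KO and 6.05%, 5.65% and 5.27% in WT (exact permutation p = 0.0571, adjusted 0.171). The share from mo-DCs was 6.31%, 3.49%, 2.12% and 9.18% in KO against 1.53%, 1.69% and 1.55% in WT (exact permutation p = 0.0857, adjusted 0.193). T cells made up 5.45% ± 2.7 in KO and 1.32% ± 0.77 in WT, while T cells were the larger share of cells in every KO mouse.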

How the data were processed

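Single-cell 5′ libraries of 7 mice (4 KO, 3 WT) were analysed, grouped by the genotype label. The deposited matrix holds estimated counts (UMIs per gene and cell, not all whole), made by the authors with STAR 2.7.10a and STARsolo on mm10, per the submitters' processing notes, with FastQC 0.11.5 also named. The deposited cell table gave the annotation and the mitochondrial percent of each cell, as the authors computed it. The filters on cells and the treatment of doublets were not given in the sources used here.

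UMIs were summed per mouse and annotation value or class, and rounded to whole numbers for the tests. Levels are CPM, as mean ± SD over mice with at least 5 cells. Genotypes were compared with edgeR 4.0.16 (R 4.3.3, TMM, filterByExpr, robust quasi-likelihood fit) over libraries of at least 20 cells, at an adjusted p of 0.05 over all genes. DESeq2 1.42.0 was an alternative. The fit was also run on simulated sums with the same spread for every gene, which cannot show its power at the spread between these mice. Detection was computed exactly for cells thinned to 1500 UMIs. Likeness used a pseudocount of 1 and genes reaching 20 CPM in an annotation value. Its CPM were means over mice with at least 20 cells of the value. Main microglia were 10, 7, 0 and 15 cells in KO, so that value rested on WT mice only. Shares of C1q UMIs were compared by exact permutation, two-sided on the difference of means over all arrangements of the mice (Python 3.11.15). The members named were the listed genes, and the members and pathway lists were chosen with earlier results of these data known. Alternatives were other tools, filters, cells and classes, leaving out each mouse, sex as a term and the replicate block. One gene of the wider pathway is not reported here.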

Additional observations from a re-analysis of the deposited data

Results flagged for a closer look

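In 53 sets of values over the 4 KO mice, 3 held a mouse far from the others, where chance gives about 1 in 20. C1qa in the microglia of KO replicate 3 stood at 2493 CPM, with the nearest mouse at 5461; that library held 13 microglia, none of them of the main microglia annotation, and was left out of the microglia fit. C3 in the same microglia stood at 325 CPM, with the nearest mouse at 58.7. C1qc in monocytes (P1-P2) of KO replicate 1 stood at 436 CPM, with the nearest mouse at 926.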

How the results depend on the processing

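Of 1070 alternative values for 110 results, 978 were labelled the same and 31 changed direction. For a fold change the same meant an unchanged direction and side of the threshold, and for a count of members called an unchanged count. Another 8 fold changes passed the threshold only in the alternative. A further 2 values of the main results and 51 of the others were labelled as moved. Without the filter on low counts 2 members were called in monocytes (P1-P2), and DESeq2 called 6 in all sorted cells. With the same number of cells per class the KO minus WT share of C1q from monocyte-derived cells reversed, from -5.73 to 5.58 percentage points. With the replicate block, log2 fold changes were 0.11 for C3 in microglia, -0.095, -0.193 and -0.055 for C1qa, C1qb and C1qc in mo-DCs and 0.075 for C1qc in proliferating macrophages; deviations of same-numbered mice correlated at 0.13, 0.061 and -0.21 in monocyte-derived cells and 0.26, -0.29 and -0.019 in all sorted cells (replicates 1 to 3), so not every pair passed 0.1 and the numbers were not taken to pair the mice. Cells at or below the median mitochondrial content gave 0.028 for C1qb in microglia and 0.057 for C5ar1 in monocytes (P1-P2). C3 in microglia was 0.47 with libraries of 5 or more cells. Single annotations gave 0.21 (P5) and 0.49 (proliferating) for C3, 0.26 (P5) for Cfb and 0.24 (P3) for Cfp in place of all monocyte-derived cells. Leaving out each mouse gave -0.38 to 0.060 for C3 in microglia, and in monocyte-derived cells -0.25 to 0.0054 for C1qa, -0.38 to 0.20 for C3, -0.27 to 0.045 for Cfb and -0.34 to 0.40 for Cfp. It gave -0.25 to 0.11 for Cfp in mo-DCs, -0.22 to 0.18 for C5ar1 in monocytes (P1-P2), -0.15 to 0.017 for C1qa in macrophages (P5) and -0.14 to 0.082 for C1qc in proliferating macrophages. The microglia minus monocyte-derived difference ran from -0.998 to 0.77 for C3 and from -0.94 to 0.026 for Cfp. It kept its direction for Cfb (-1.22 to -0.12) and C3ar1 (-0.62 to -0.058), with a wide range in size. The cause of these changes was not tested. KO microglia (113 cells) limit every microglia comparison.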
